A study of Mus musculus with 6 samples.

Results

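The 9 genes described here are long non-coding RNAs of mouse dental pulp, taken as the rows of the deposited gene table whose symbol is Malat1, Neat1, Meg3, Rian, Mirg, Kcnq1ot1, H19, Gas5 or Snhg1. They are 9 of the 53342 Ensembl genes in the table, each symbol matched 1 row, and all 9 passed the filter on low counts that left 24534 genes for testing. Pulp RNA was sequenced from 3 WT mice and 3 homozygous MMP13-deficient mice (Mmp13-/-), all C57BL/6 and 3 months old, and the study's methods describe the mice as male. The deletion is carried in the germline and so by every cell of the knockout animals. The labels name molars for both genotypes in their growth protocol, with the word Molar in the titles of WT samples alone, and an RNeasy column kit, whereas the study's methods name incisors and TRIzol, and its supplement speaks of pulp cell cultures. The samples were numbered 2, 4 and 5 in WT and 1, 2 and 6 in Mmp13-/-, and each stood for an independent biological sample. The comparison asks which transcripts differ in pulp that lacks the collagenase MMP13.

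Long non-coding RNAs are transcripts that are not translated into a protein. Malat1 and Neat1 are neighbouring genes whose RNAs stay in the nucleus, Malat1 in splicing-factor speckles and Neat1 as the scaffold of paraspeckles. Meg3, Rian and Mirg are made from the maternal copy of the imprinted Dlk1-Dio3 domain, Kcnq1ot1 from the paternal copy of the Kcnq1 domain, where it runs antisense to Kcnq1, and H19 from the maternal copy next to Igf2. Imprinted means that the parent of origin sets which copy is used. Gas5 and Snhg1 carry small nucleolar RNAs (snoRNAs) in their introns, and their spliced RNAs are degraded by nonsense-mediated decay when translation is active. In whole tissue, fewer cells that express a gene and less of its RNA per cell cannot be told apart.

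Values are normalized counts, that is, the authors' estimated counts after TMM scaling (which assumes that most genes are unchanged), expressed per library of average size. Library totals were 28442936 to 29980236 counts in WT and 21561420 to 26547121 in Mmp13-/-. In the order of the sample numbers, which is kept below, Mmp13 itself was at 997, 1058 and 816 in WT, against 8.74, 29.7 and 63.2 in the knockout. The odontoblast gene Dspp was present in every sample, from 14156 to 65439 normalized counts. Counts of major satellite repeats made up 0.0331% to 0.0445% of WT libraries but 5.87%, 10.3% and 46.1% of Mmp13-/- samples 1, 2 and 6. Odorant and vomeronasal receptor genes, which pulp is not known to use, held 17.9 to 20.8 CPM in WT and 308, 357 and 1198 in Mmp13-/-. Mmp13-/- sample 6 therefore stood apart. WT samples also held more skeletal muscle transcripts. The summed level of 18 muscle markers was 3169150 to 3716370 normalized counts in WT and 848410 to 1858220 in Mmp13-/-. Of the 18, 13 were called lower, where 24.3% of all tested genes were. Summed levels of 11 neutrophil markers were 4113 to 8495 in WT and 19913 to 48578 in Mmp13-/-. Of the 11, 10 were called higher, where 27.3% of all tested genes were. For 9 erythroid markers the sums were 24299 to 39637 and 57593 to 108079, with 7 of 9 called higher, and for 8 lymphocyte markers 136 to 231 and 797 to 962, with 8 of 8 called higher. Every marker of these lists was above 0 in at least 1 sample, and the part of these cells in the results on the 9 RNAs was not tested.

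Of the 9 RNAs, 6 differed between the genotypes at an adjusted p under 0.05 (edgeR's quasi-likelihood test, Benjamini-Hochberg over all tested genes), against 51.6% of all genes tested. Rian, Gas5 and Snhg1 were higher in Mmp13-/-, where 27.3% of all genes were called higher, and Neat1, Meg3 and H19 were lower, where 24.3% were. Over 2-fold changes were called for Rian, Snhg1 and H19, 3 of 9 against 30.1% of all genes. This count was 2 of 9 without WT sample 4 (Rian at 0.99) and 4 of 9 without WT sample 2 (Neat1 at −1.02), Mmp13-/- sample 1 (Neat1 again) or Mmp13-/- sample 2 (Meg3 at −1.11). Without WT sample 5 it stayed at 3 of 9, but Rian (0.998) dropped out and Meg3 (−1.15) came in. The same 6 RNAs had genotypes that did not overlap in normalized count, against 60.9% of all genes. These shares lie near the background, so the number of calls is not particular to the 9 RNAs. Malat1, Mirg and Kcnq1ot1 were not called. The median log2 fold change was 0.23 over the 9 RNAs and 0.10 over all tested genes.

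**Figure D1:**
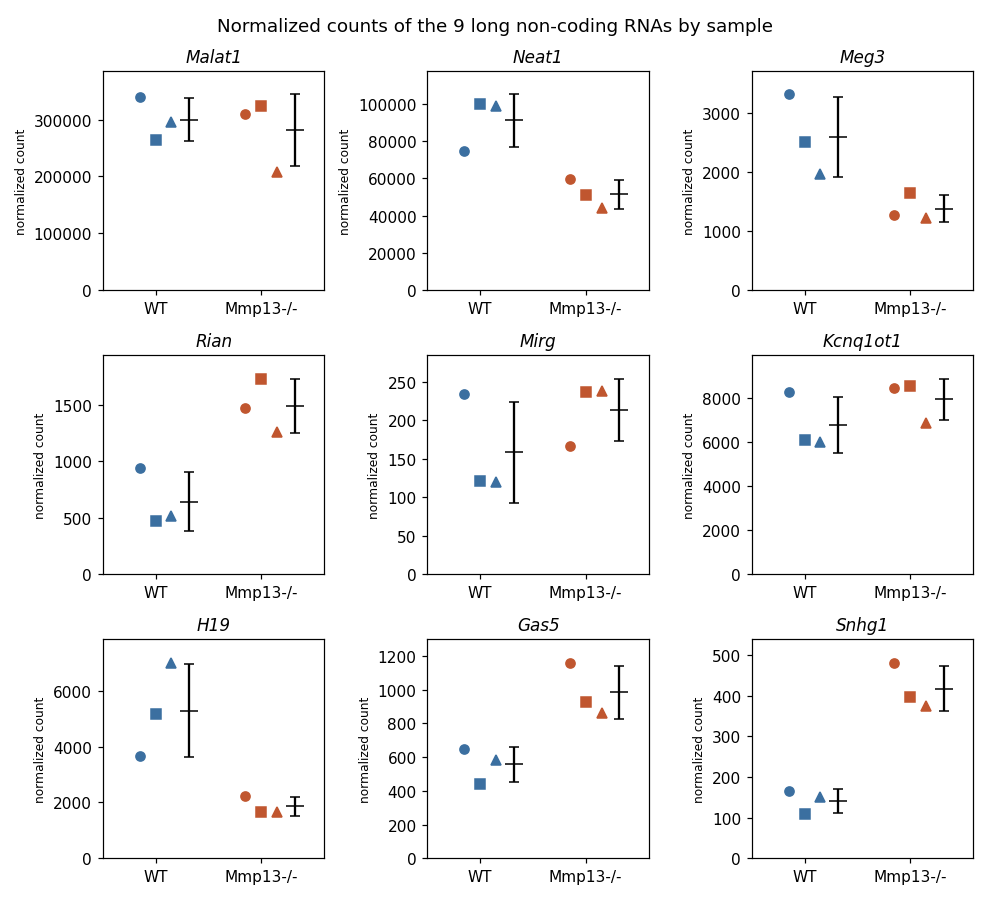
Normalized counts (each axis from 0) of the 9 RNAs. Coloured points are the samples, WT 2, 4 and 5 in blue and Mmp13-/- 1, 2 and 6 in orange (circle, square and triangle in that order), and black marks are the mean with SD (n = 3). The genotypes do not overlap for Neat1, Meg3, Rian, H19, Gas5 and Snhg1, and overlap for Malat1, Mirg and Kcnq1ot1.

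The levels of the 9 RNAs spanned 3 orders of magnitude per kilobase of exon. In WT, Malat1 had 42920 ± 5439 (SD, n = 3) normalized counts per kilobase, Neat1 4381 ± 674 and H19 2146 ± 678. Gas5 followed with 148 ± 27.9 and Meg3 with 143 ± 37.6, and these neighbours did not differ beyond their spread. Kcnq1ot1 stood at 72.7 ± 13.8, Snhg1 at 47.8 ± 10.02, Rian at 35.2 ± 14.3 and Mirg at 21.8 ± 8.98, and from Snhg1 to Mirg each step lay within the SDs. In Mmp13-/- the order began with Malat1 (40272 ± 9085), Neat1 (2477 ± 372) and H19 (756 ± 134) again. Gas5 (261 ± 41.6) then stood clear of the others, and Snhg1 (141 ± 18.9) lay above Kcnq1ot1 (85.3 ± 10.1), Rian (81.4 ± 13.1), Meg3 (76.2 ± 12.3) and Mirg (29.3 ± 5.58) per kilobase. The order from Kcnq1ot1 to Meg3 lay within the SDs. The exon length is the union of all annotated exons, which for Snhg1 covers the whole gene, introns included. For Gas5 it is 3760 bases in 3 blocks, most of the gene, and so takes in intron sequence too.

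Malat1 (ENSMUSG00000092341) is a single-exon gene on the minus strand at chr19:5795690-5802672 of GRCm38 (mm10). It had 339704, 264137 and 295284 normalized counts in WT and 310860, 324407 and 208384 in Mmp13-/-, ranking ninth and eighth of all genes. The genotypes overlapped, and the lowest sample was Mmp13-/- 6. The log2 fold change was −0.09 (SE 0.31, adjusted p = 0.822 by edgeR's test). Its 95% interval ran from −0.78 to 0.59, so changes of either direction within it remain possible. Without Mmp13-/- sample 6 the log2 fold change was 0.09. As a share of all counts Malat1 took 0.955% to 1.21% in WT, compared with 1.38%, 1.35% and 0.618% for the knockout. Without satellite counts in the total, the share in sample 6 was 1.15%. Background reads, estimated from the receptor genes of the same library, could make up at most 0.0252% of the Malat1 count in any sample.

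Neat1 (ENSMUSG00000092274) lies at chr19:5824708-5845478 on the same strand, also as 1 exon. WT samples had 74864, 99656 and 98495 normalized counts, compared with 59504, 50794 and 44075 in Mmp13-/-. Every knockout sample was thus below every WT sample, the log2 fold change was −0.82 (SE 0.25, adjusted p = 0.0187 by edgeR), and background reads reached at most 0.354% of the count. With WT sample 4 or 5 left out the adjusted p of Neat1 was 0.0744 or 0.0660 by edgeR, and with total counts in place of TMM factors it was 0.191. Within a library, Neat1 had 0.220, 0.377 and 0.334 counts per Malat1 count in WT and 0.191, 0.157 and 0.212 in Mmp13-/-, a ratio that does not depend on the scaling between libraries. The highest knockout ratio lay just under the lowest WT ratio. The log2 difference in the ratio was −0.71, and −0.033 after a correction of each library for the GC content of its genes (GC correction), an alternative to the fit above. The exact two-sided permutation test gave p = 0.1, the smallest that 3 against 3 samples allow, so no ratio described here could pass 0.05.

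Genes for proteins of the nuclear bodies these RNAs belong to were read against all tested genes, of which 27.3% were called higher and 24.3% lower. Of 15 paraspeckle proteins, 3 (20%) were called higher and 4 (26.7%) lower, near those shares, with a median log2 fold change of −0.25. With GC correction 1 (6.67%) was called higher and 5 (33.3%) lower, where 22.9% and 12.8% of all genes were. Nono, a core paraspeckle protein that binds Neat1, was higher by 0.57 (SE 0.17, adjusted p = 0.0193 by edgeR), as was the RNA-binding protein gene Tardbp by 0.71 (SE 0.20). Nudt21, a 3′-end processing factor, was lower by −0.77 (SE 0.14), and the chromatin remodeller Smarca4 had −0.60 (SE 0.15). With GC correction Tardbp (0.04, adjusted p = 0.792 by edgeR) and Smarca4 (0.18, adjusted p = 0.143) were not called. Of 18 nuclear speckle proteins, 4 (22.2%) were called higher and 8 (44.4%) lower (median −0.18). With GC correction 4 (22.2%) were called higher and 10 (55.6%) lower, against the same 22.9% and 12.8% of all genes. The splicing factors Srsf3 (1.02, SE 0.17) and Tra2b (1.13, SE 0.18) were higher, and Acin1 (−0.86, SE 0.15) and Rnps1 (−0.73, SE 0.14) were lower, and Acin1 was not called with GC correction (−0.27, adjusted p = 0.0506 by edgeR).

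H19 (ENSMUSG00000000031), on the minus strand at chr7:142575529-142578143, fell most among the 9 RNAs. It had 3667, 5175 and 6998 normalized counts in WT and 2241, 1662 and 1677 in Mmp13-/-, with a log2 fold change of −1.50 (SE 0.24, adjusted p = 0.000771 by edgeR), or 2.84-fold lower. All knockout samples were below all WT samples, and WT itself ranged widely. Igf2, the paternally expressed growth factor gene beside it, fell as well, with 2247, 1580 and 1241 in WT against 627, 902 and 700 (log2 fold change −1.18, SE 0.23, adjusted p = 0.00198 by edgeR). The ratio of H19 to Igf2 was 1.63, 3.27 and 5.64 in WT and 3.57, 1.84 and 2.40 in Mmp13-/-, and the genotypes overlapped (exact permutation p = 0.7). Of the 5 tested neighbours in that domain, 3 (60%) fell, where 24.3% of all genes did. These were Igf2, the fast-muscle troponin gene Tnnt3 (−1.53, SE 0.33) and the leukocyte gene Lsp1 (−0.50, SE 0.15). Igf2os (−0.27, SE 0.49) and the ribosomal protein gene Mrpl23 (−0.26, SE 0.15) were not called, and the median over the 5 was −0.50. Ins2 had too few counts to be tested, with 0 in each WT sample. Muscle markers fell alongside H19 and Tnnt3, as given above, and their part was not tested.

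The 3 non-coding RNAs of the Dlk1-Dio3 domain on the plus strand of chromosome 12 did not move together. Meg3 (ENSMUSG00000021268, chr12:109541001-109571726) had 3311, 2500 and 1958 normalized counts in WT and 1277, 1635 and 1225 in Mmp13-/-, and its log2 fold change was −0.91 (SE 0.21, adjusted p = 0.00483 by edgeR). Rian (ENSMUSG00000097451, chr12:109603940-109661716), a host of box C/D snoRNAs, had 940, 472 and 511 in WT and 1467, 1732 and 1255 in Mmp13-/-, with 1.21 (SE 0.25, adjusted p = 0.00319 by edgeR). Meg3 fell in every knockout sample and Rian rose in every knockout sample relative to the whole WT range. Mirg (ENSMUSG00000097391, chr12:109729764-109749460), the host of a microRNA cluster, had 234, 121 and 120 in WT and 167, 236 and 238 in Mmp13-/-. Its genotypes overlapped through WT sample 2, and the log2 fold change of 0.43 (SE 0.28) was not called (adjusted p = 0.230, 95% interval −0.20 to 1.05). Without WT sample 2 it was 0.74 (adjusted p = 0.0214 by edgeR).

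The opposite changes of Meg3 and Rian could be seen in ratios within each library. Rian had 0.284, 0.189 and 0.261 counts per Meg3 count in WT and 1.15, 1.06 and 1.02 in Mmp13-/-, a 4.47-fold difference between the means on the log2 scale with no overlap (exact permutation p = 0.1, adjusted over 7 ratios 0.14). With GC correction the difference was 1.76-fold. Mirg had 0.0708, 0.0485 and 0.0615 counts per Meg3 count in WT and 0.1305, 0.144 and 0.194 in Mmp13-/-, again without overlap and with the same p. None of the 5 coding genes of the domain was called, where 51.6% of all genes were, and their median was −0.24. Dlk1, a Notch-ligand-like membrane protein, had a log2 fold change of 0.51 (SE 0.50), the retrotransposon-derived Rtl1 −0.24 (SE 0.20) and the deiodinase gene Dio3 −0.37 (SE 0.29). The flanking genes Begain and Wdr25 had −0.69 (SE 0.33) and −0.13 (SE 0.19), and Begain was called without Mmp13-/- sample 6 (−0.98, adjusted p = 0.0373 by edgeR). Background reads were estimated at 11.1% of the Meg3 count, 10.9% of the Rian count and 23.0% of the Mirg count in Mmp13-/- sample 6, at most 5.65% in the other knockout samples and at most 0.566% in WT. With that background subtracted and the TMM factors computed anew, the log2 fold changes were −0.81 for Meg3, 1.31 for Rian and 0.42 for Mirg. Meg3 and Rian were still called. Malat1, with at most 0.0252% background, moved from −0.09 to 0.06 in the same fit, so these shifts also hold the change in factors.

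**Figure D2:**
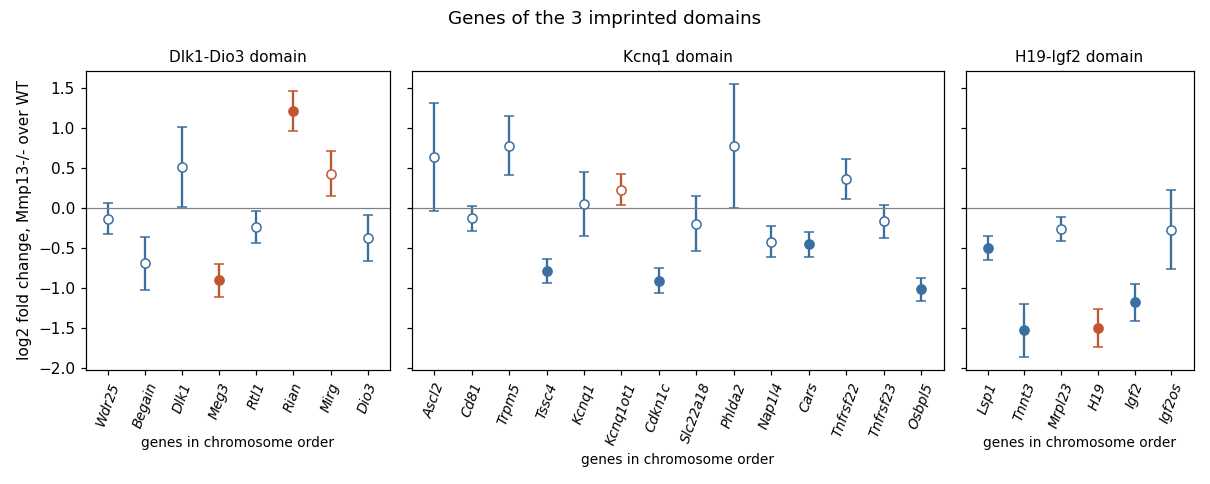
Log2 fold changes (Mmp13-/- over WT, with SE) of the tested genes in the 3 imprinted domains, in chromosome order. Long non-coding RNAs of the set are orange and other genes blue, and filled points have an adjusted p under 0.05. Meg3 lies below 0 and Rian above 0 on either side of Rtl1, and H19 lies with Igf2 and Tnnt3 below −1.

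Kcnq1ot1 (ENSMUSG00000101609) covers 93092 bases of the minus strand at chr7:143203458-143296549 as a single exon. It had 8255, 6075 and 5980 normalized counts in WT and 8441, 8523 and 6855 in Mmp13-/-. Background reads were estimated at 1.42%, 1.73% and 10.2% of the Kcnq1ot1 count in Mmp13-/- and at most 0.145% in WT. WT sample 2 lay among the knockout samples, and the log2 fold change of 0.23 (SE 0.19) was not called (adjusted p = 0.340, 95% interval −0.20 to 0.66). Around Kcnq1ot1 lie 13 tested genes, some of which it silences on the paternal copy in other tissues. None of the 13 was called higher, against 27.3% of all genes, and 4 (30.8%) were called lower, against 24.3%. Those were Cdkn1c, a cell-cycle inhibitor (839, 716 and 598 in WT and 375, 410 and 361 in Mmp13-/-, log2 fold change −0.91, SE 0.16, adjusted p = 0.00126 by edgeR), Tssc4 (−0.79, SE 0.15), the lipid-transfer gene Osbpl5 (−1.02, SE 0.15) and the cysteinyl-tRNA synthetase gene Cars (−0.46, SE 0.15). Without Mmp13-/- sample 6 Cars was not called (−0.37, adjusted p = 0.0669 by edgeR), and with GC correction none of the 4 was, while Cd81 (0.31, adjusted p = 0.0385 by edgeR) and Trpm5 (1.48, adjusted p = 0.0272) were called higher. With that correction 22.9% of all genes were called higher and 12.8% lower. Not called were Cd81 (−0.13, SE 0.16), Nap1l4 (−0.42, SE 0.19), Slc22a18 (−0.20, SE 0.34), Phlda2 (0.77, SE 0.78), Ascl2 (0.64, SE 0.68), Trpm5 (0.78, SE 0.37), Tnfrsf22 (0.36, SE 0.25) and Tnfrsf23 (−0.17, SE 0.21). Kcnq1ot1 had 9.84, 8.48 and 10.01 counts per Cdkn1c count in WT and 22.5, 20.8 and 19.01 in Mmp13-/-, with no overlap (exact permutation p = 0.1). The log2 difference in this ratio turned from 1.14 to −0.81 with GC correction. Kcnq1, the potassium channel gene that Kcnq1ot1 overlaps on the other strand, had 40.6 to 129 normalized counts and a log2 fold change of 0.05 (SE 0.41), which was −0.57 without Mmp13-/- sample 6. Whether the counting used strand is not given in the sources used here, so reads of overlapping genes on opposite strands may not be separated. Gm24321 and Mir409, which overlap on opposite strands within Mirg, had the same count in every sample (at most 0.72). Strand thus did not separate the reads of that pair.

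Both snoRNA hosts rose. Gas5 (ENSMUSG00000053332, chr1:161034422-161038539, plus strand) had 647, 442 and 580 normalized counts in WT and 1159, 929 and 860 in Mmp13-/-, a log2 fold change of 0.82 (SE 0.18, adjusted p = 0.00399 by edgeR). Snhg1 (ENSMUSG00000108414, chr19:8723475-8726443, plus strand) had 165, 108 and 152 in WT and 481, 397 and 374 in Mmp13-/-, a log2 fold change of 1.56 (SE 0.20, adjusted p = 0.000237 by edgeR), or 2.95-fold higher. The genotypes overlapped for neither gene. Background reads reached at most 3.28% of the Gas5 count and 5.96% of the Snhg1 count, both in Mmp13-/- sample 6. Snhg1 had 0.256, 0.245 and 0.261 counts per Gas5 count in WT, compared with 0.415, 0.428 and 0.435 for the knockout, with the narrowest spread among the 7 ratios (exact permutation p = 0.1). Zbtb37, which overlaps Gas5 on the other strand, had a log2 fold change of 0.55 (adjusted p = 0.0314 by edgeR).

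The windows around the annotated starts of both hosts, and of Meg3, are shown because each has the letters TATA 40 to 21 bases before the start, and Gas5 also begins with a run of pyrimidines (C and T), the 5′ terminal tract known from genes of the translation machinery. In each line the first 50 bases, in lower case, precede the start given by RefSeq (GRCm38.p6) and the next 50, in capitals, follow it. Gas5 has a second RefSeq start upstream, which holds neither feature. The windows are chr1:161035116-161035215 for Gas5, chr19:8723437-8723536 for Snhg1 and chr12:109540946-109541045 for Meg3, all on the plus strand.
Gas5: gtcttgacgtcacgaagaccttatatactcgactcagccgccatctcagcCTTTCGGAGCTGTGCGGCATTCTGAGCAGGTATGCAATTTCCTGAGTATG
Snhg1: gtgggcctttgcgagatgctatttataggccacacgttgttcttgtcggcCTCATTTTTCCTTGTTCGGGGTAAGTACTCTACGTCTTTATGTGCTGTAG
Meg3: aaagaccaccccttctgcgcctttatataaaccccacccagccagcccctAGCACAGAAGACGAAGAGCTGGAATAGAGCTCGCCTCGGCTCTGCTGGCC

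RefSeq gave 9 starts for 7 of the 9 RNAs, with none for Neat1 and H19. The letters TATA, searched on the transcribed strand between 40 and 21 bases before the start, were present at 3 of the 9 starts and at 5.34% of all 32851 promoters in the table. A start of C followed by at least 4 pyrimidines was found at 1 of the 9, that of Gas5, and at 2.51% of all promoters. Gas5 and Snhg1, which share the TATA letters, rose, and Meg3, which has them too, fell.

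Of 18 other snoRNA hosts tested, 5 (27.8%) were called higher and 1 (5.56%) lower, where 27.3% and 24.3% of all genes were, with a median log2 fold change of 0.48 against 0.10 over all genes. With GC correction 8 (44.4%) were called higher and none lower, where 22.9% and 12.8% of all genes were. Snhg4 (1.37, SE 0.21) and Snhg14 (2.05, SE 0.18) rose, Snhg17 fell (−0.46, SE 0.14, adjusted p = 0.0206 by edgeR) and Snhg15 was not called (−0.48, SE 0.23). Snhg17 was not called with GC correction (−0.0605, adjusted p = 0.778 by edgeR). Of 9 core proteins of small nucleolar particles, 4 (44.4%) rose and 2 (22.2%) fell, and 4 and 0 with GC correction. Nop58, a box C/D core protein, had 0.96 (SE 0.15), the H/ACA protein gene Nop10 1.22 (SE 0.18), and the methyltransferase gene Fbl −0.39 (SE 0.14). Rrp9 had 504 to 657 normalized counts in WT and 262 to 324 in Mmp13-/- (adjusted p = 0.000742 by edgeR). With GC correction Nop58 (0.31, adjusted p = 0.0765 by edgeR), Rrp9 (−0.0075, adjusted p = 0.965) and Fbl (0.25, adjusted p = 0.220) were not called. Of 10 genes of nonsense-mediated decay, 2 (20%) rose and 4 (40%) fell (median −0.34), and 1 and 1 with GC correction. Upf2 (0.91, SE 0.16) and the kinase gene Smg1 (0.46, SE 0.16) were higher, and Smg5 (−1.18, SE 0.15) and Smg9 (−1.26, SE 0.14) were lower. Smg1 (0.11, adjusted p = 0.412 by edgeR) and Smg9 (−0.18, adjusted p = 0.273) were not called with GC correction.

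Some rows of the table lie inside the 9 RNAs and were counted as genes of their own. There were 68 such rows, among them 52 small RNA genes (21 microRNAs and 31 snoRNAs), of which 12 were at 0 in every sample and 3 had enough counts to be tested. In a library of long RNA, reads of such a row and reads of the surrounding transcript cannot be told apart. Snord22, at bases 2392 to 2517 of Snhg1, was the small RNA row with the most counts. It had 34.2, 28.1 and 39.5 normalized counts in WT and 219, 216 and 290 in Mmp13-/-, with a log2 fold change of 2.83 (SE 0.23, adjusted p = 4.88e-05 by edgeR), while Snhg1 was at 1.56. Its count equalled 20.7%, 26.0% and 26.0% of the Snhg1 count in WT and 45.5%, 54.3% and 77.6% in Mmp13-/-. All 3 knockout shares lay above the WT range. Other small RNA rows described here were low. Gm22357, a snoRNA of Gas5, had 0 to 13.5 normalized counts and a log2 fold change of 0.00 (SE 0.85). Gm24895 in Rian, Gm23212 and Snord78 in Gas5 had at most 15.8 normalized counts and were not tested. All 10 snoRNA rows of Gas5 stood at 0 in Mmp13-/- sample 1, although 8 of them had counts in other samples and Gas5 itself was highest there. Their summed count was 21.59 to 35.9 in WT, 68.9 in Mmp13-/- sample 2 and 33.9 in sample 6.

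Tested rows at the 5′ ends of the nuclear RNAs fell more than the RNAs that hold them. They were picked out after their values were seen. Gm37376 is annotated on the strand opposite to Malat1, over bases 280 to 732 from its 5′ end (chr19:5801941-5802393). It had 16905, 13298 and 15840 normalized counts in WT and 5041, 5320 and 4045 in Mmp13-/-, with a log2 fold change of −1.68 (SE 0.19, adjusted p = 0.000164 by edgeR). Its count equalled 4.98% to 5.36% of that of Malat1 in WT and 1.62% to 1.94% in Mmp13-/- (Malat1 itself had −0.09). Within Neat1, Gm28006 (bases 442 to 563) had 128, 106 and 83.3 in WT and 16.5, 17.2 and 9.39 in Mmp13-/-, a log2 fold change of −2.83 (SE 0.33). Gm27533 (bases 1042 to 1193) had −2.46 (SE 0.42, adjusted p = 0.00109 by edgeR), where Neat1 as a whole had −0.82. Gm27505, between these rows at bases 732 to 841, was at 0 in every sample. Gm27300, at bases 3339 to 3435 of Meg3, had too few counts to be tested, with 5.41 to 9.33 in WT and 1.46 to 3.48 in Mmp13-/-. Further 3′, Gm26906, opposite to the 3′ end of Meg3, had −0.93 (SE 0.30) beside −0.91 for Meg3 and was not called without Mmp13-/- sample 6 (−0.73, adjusted p = 0.0557 by edgeR), and Gm26945 within Rian had 1.75 (SE 0.41) beside 1.21. The difference between a row and its host was not tested. The estimated counts share reads between overlapping genes, and how reads were divided between these rows and their hosts is not given in the sources used here.

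**Figure D3:**
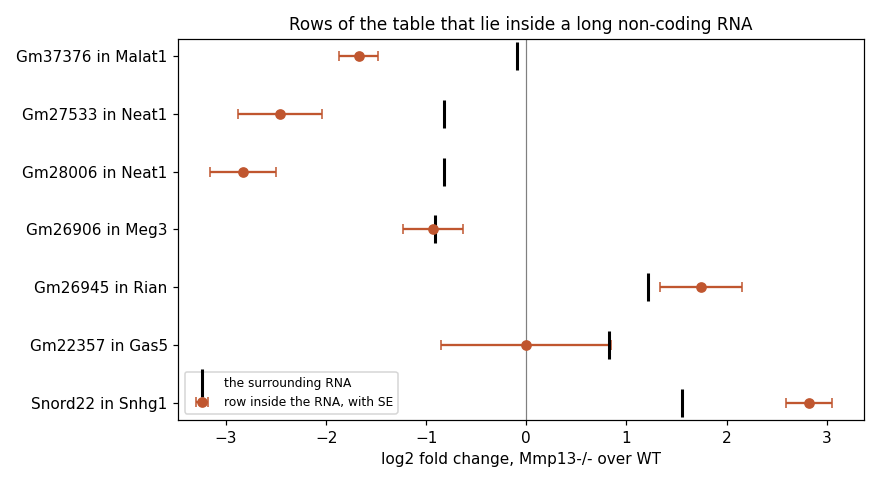
Log2 fold changes (Mmp13-/- over WT) of 7 tested rows that lie inside a long non-coding RNA (orange, with SE), beside the value of the surrounding RNA (black bar). Gm37376, Gm27533 and Gm28006 lie to the left of their hosts and Snord22 to the right of Snhg1, whereas Gm26906 lies on Meg3.

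The sequences of the rows within Neat1 and of Snord22 are given here from the GENCODE M21 transcripts, so that the stretch behind each count can be seen. Gm28006 (chr19:5844916-5845037) and Gm27533 (chr19:5844286-5844437) are on the minus strand of chromosome 19, and Snord22 (chr19:8725866-8725991) is on its plus strand. Their GC contents were 55.7%, 59.2% and 51.6%, above those of Neat1 (48.2%) and Snhg1 (41.0%). Gm37376 had 43.7% against 42.3% for Malat1.
Gm28006: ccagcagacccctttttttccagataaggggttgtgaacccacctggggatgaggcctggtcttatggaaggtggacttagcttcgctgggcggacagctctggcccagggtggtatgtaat
Gm27533: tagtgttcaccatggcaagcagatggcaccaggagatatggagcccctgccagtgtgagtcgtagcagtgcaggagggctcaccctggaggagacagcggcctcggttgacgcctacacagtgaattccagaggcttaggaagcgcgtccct
Snord22: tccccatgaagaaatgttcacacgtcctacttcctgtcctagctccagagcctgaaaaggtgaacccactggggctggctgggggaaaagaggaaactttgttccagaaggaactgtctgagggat

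The RNAs that rose and those that fell differed in the GC content of their exons. Rian, Kcnq1ot1, Snhg1, Malat1 and Gas5 had 40.1% to 42.5% GC and lay in quintile 1 (the lowest) of tested genes, Neat1 (48.2%) in quintile 3, and Meg3, Mirg and H19 (51.9% to 55.0%) in quintile 4. All genes of the table showed the same trend. In quintile 1 (4899 genes) the median log2 fold change was 0.97, with 58.4% called higher and 2.71% called lower, and in quintile 4 it was −0.33, with 14.05% higher and 37.5% lower. The median of quintile 3 was 0.05. Malat1 (−0.09), Kcnq1ot1 (0.23), Neat1 (−0.82), Meg3 (−0.91) and H19 (−1.50) lay below the medians of their quintiles. Snhg1 (1.56), Rian (1.21) and Mirg (0.43) lay above them, and Gas5 (0.82) lay a little below. Between these genotypes, GC content of the reads and genotype cannot be told apart.

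A correction of each library for GC content, fitted over all genes, changed the call of 5 of the 9 RNAs. Meg3 (−0.50, adjusted p = 0.0849 by edgeR), Rian (0.32, adjusted p = 0.235) and Gas5 (0.23, adjusted p = 0.181) were no longer called. Neat1 (−0.76, adjusted p = 0.0151 by edgeR), H19 (−0.80, adjusted p = 0.0183) and Snhg1 (0.79, adjusted p = 0.00568) kept their call and direction. Malat1 became lower (−0.73, adjusted p = 0.0263 by edgeR) and Kcnq1ot1 turned from a value above 0 to −0.65 (adjusted p = 0.00542). Mirg had 0.85 (adjusted p = 0.0680 by edgeR). No RNA passed 2-fold after the correction, when the median of all genes was 0.20. The rows at the 5′ ends kept their calls, with −2.13 for Gm37376, −2.11 for Gm28006 and −1.46 for Gm27533, and so did Snord22 with 3.23, whereas Gm26906 (−0.51, adjusted p = 0.204 by edgeR) and Gm26945 (0.49, adjusted p = 0.382) were no longer called. In the imprinted domains, Tnnt3 (−1.11) was still called, whereas Igf2 (−0.56), Osbpl5 (−0.15), Cdkn1c (0.16), Tssc4 (0.30), Cars (0.06) and Lsp1 (0.17) were not.

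**Figure D4:**
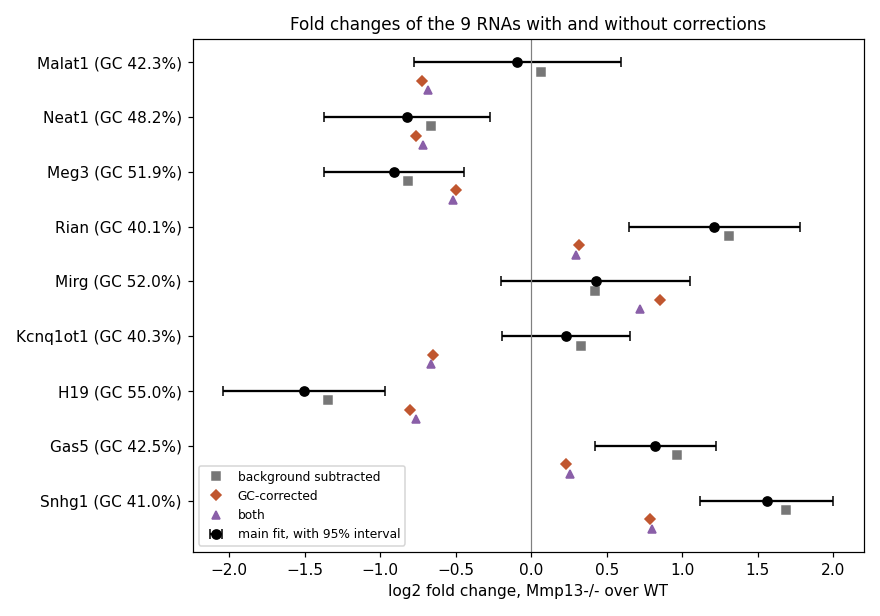
Log2 fold changes of the 9 RNAs (Mmp13-/- over WT) with the GC content of their exons beside each name. Black points are the edgeR estimates with 95% intervals, and the other symbols are the estimates after background subtraction, GC correction and both. Background subtraction, with the TMM factors computed anew, moves every RNA by less than 0.2. GC correction takes Rian from 1.21 to 0.32 and Kcnq1ot1 from 0.23 to −0.65.

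**Figure D5:**
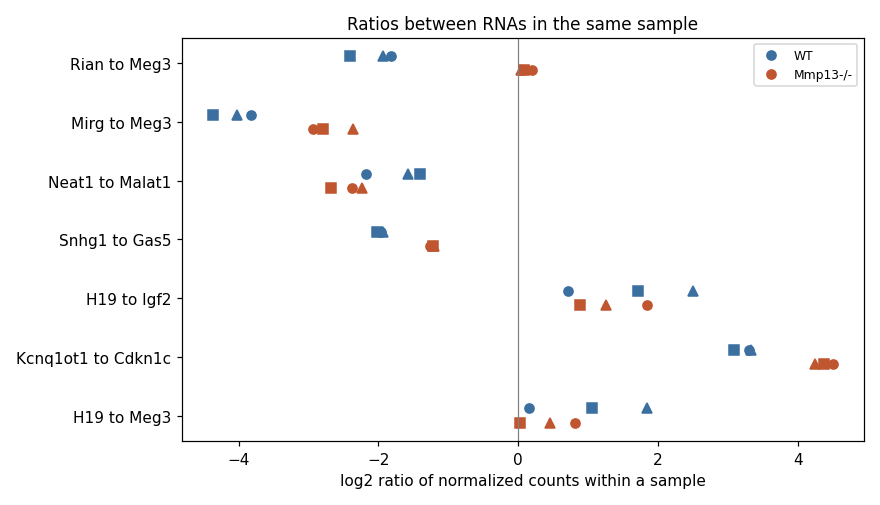
Log2 ratios of normalized counts of 2 RNAs in the same sample, with WT above (blue) and Mmp13-/- below (orange) and symbols by sample as in the plot of normalized counts. The genotypes are apart for Rian to Meg3, Mirg to Meg3, Neat1 to Malat1, Snhg1 to Gas5 and Kcnq1ot1 to Cdkn1c, and overlap for H19 to Igf2 and H19 to Meg3.

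Among 22 other tested long non-coding RNAs known by name, 11 (50%) were called higher and 6 (27.3%) lower, where 27.3% and 24.3% of all genes were, with a median log2 fold change of 0.62. With GC correction 4 were called higher and 6 lower, where 22.9% and 12.8% of all genes were. With background subtraction as well, 1 of 20 was called higher and 7 lower, where 18.5% and 14.7% of all genes were. Dnm3os, the antisense host of a microRNA cluster, had 524 to 829 normalized counts in WT and 1869 to 2504 in Mmp13-/- (1.76, SE 0.20). Pantr1, at 0 to 1.87 in WT, was at 12.2, 24.6 and 45.8 in Mmp13-/-. Dnm3os was not called with GC correction (0.39, adjusted p = 0.0958 by edgeR). Miat fell (−1.22, SE 0.16). Gm26917, with 69.8% GC, had the most counts of the list, 1084220 to 1154080 in WT and 136389 to 175242 in Mmp13-/- (−2.79, SE 0.34). With GC correction it was at −1.67, and which RNA its reads come from was not tested. In a list of 11 other tested transcripts, drawn up for imprinted loci, 3 (27.3%) rose and 3 (27.3%) fell. This list holds coding genes such as Usp29 and Trappc9 beside non-coding RNAs. Snhg14, counted above among the snoRNA hosts, and Jpx, counted among the RNAs known by name, are in it again. With background subtraction and GC correction together, 1 of the list was called higher and 4 lower, where 18.5% and 14.7% of all genes were. Nctc1, a transcript downstream of H19, had 2851 to 3716 in WT and 649 to 1353 in Mmp13-/- (−1.66, SE 0.25, adjusted p = 0.000564 by edgeR). Usp29 (3.47, SE 0.67) rose and Trappc9 (−1.18, SE 0.14) fell. Usp29 had 7.44 to 9.74 normalized counts in WT and 34.1, 55.8 and 204 in Mmp13-/-. Pantr1 and Usp29 were thus low in WT and highest in Mmp13-/- sample 6, where the receptor genes were highest too. The part of background reads in both was not tested. In a list of 24 imprinted coding genes, which counts Usp29 again, 7 (29.2%) rose and 5 (20.8%) fell (median 0.17), with the proteoglycan gene Dcn (2.03, SE 0.19) and Sgce (0.94, SE 0.16) higher, and Gnas (−1.26, SE 0.15) and Nnat (−1.05, SE 0.17) lower. With GC correction Gnas was at −0.33 and called, and Nnat was not called (−0.0087, adjusted p = 0.972 by edgeR).

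For each RNA the gene with the most similar pattern over the 6 samples was found from the root mean square difference of log2 normalized counts, each gene centred on its own mean. The closest genes were Rpa2 for Malat1 (0.0450), Pard3 for Neat1 (0.0317), Fbxo21 for Meg3 (0.0740), Chic1 for Rian (0.0774), Gm16193 for Mirg (0.0704) and Exoc4 for Kcnq1ot1 (0.0405). Gas5 was closest to the ribosomal protein pseudogene Rpl23a-ps3 (0.0424), Snhg1 to Far2 (0.0456) and H19 to Gm10645 (0.135), so H19 had the least close match of the 9. Among the 9 RNAs themselves, the most alike were Malat1 and Kcnq1ot1 at 0.217, and Rian was closer to Snhg1 (0.306) than to either of its neighbours Meg3 and Mirg.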

How the data were processed

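Pulp RNA of 3 WT and 3 Mmp13-/- mice was sequenced in paired reads, and 1 deposited table was analysed, with samples grouped by the genotype in their labels. The table holds estimated counts per gene, which the authors made in Strand NGS and in which a read can be split over genes, and normalized log2 values, which the authors made from those counts by the DESeq method, with values under 1 raised to 1 and each gene centred on its median. The submitters' processing notes name mm10 and DESeq. The aligner's settings, the annotation release and the use of strand are not given in the sources used here. The members and gene lists were chosen with earlier results of these data known.

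Estimated counts were rounded and tested with edgeR 4.0.16 in R 4.3.3 (quasi-likelihood test, TMM factors, filter on low counts by genotype, no covariates, Benjamini-Hochberg adjustment over 24534 genes). The test was checked on simulated data that lacked the differences in GC trend, satellite repeats and background reads between these genotypes. Ratios within a sample were compared with exact two-sided permutation tests in SciPy 1.17.1 and adjusted over 7 ratios. Exon length, GC content and positions came from GENCODE M21 (GRCm38), matched by identifier for 99.8% of genes. Background per kilobase of exon came from 1459 receptor genes, and satellite genes were 13 genes that share more than 50% of their 12-base words with the gene holding the most counts in Mmp13-/- sample 6. Named were all 9 RNAs, genes of their 3 domains, the genes with the smallest adjusted p of each related list, the small RNA rows with the most counts, the closest gene to each RNA, and Mmp13. The rows Gm37376, Gm28006, Gm27533, Gm27505, Gm27300, Gm26906, Gm26945, Gm24321 and Mir409 were added after their values were seen. Alternatives were RLE, upper-quartile and no factors, factors without satellite, receptor and the 10 most abundant genes, no filter, at least 10 counts in every sample, DESeq2 1.42.0, limma 3.58.1 on the authors' log2 values, leaving out each sample, GC correction (loess, span 0.4), background subtraction, and the last 2 together. GC correction of ratios (as differences of corrected log2 fold changes) and of counts over gene lists was added after the data were seen. SDs measure the spread between these samples, and the p-values test differences between the genotypes. Mitochondrial transcripts were not analysed here, and 1 small RNA row that the naming rule picked is not reported here.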

Additional observations from a re-analysis of the deposited data

How the results depend on the processing

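No paired analysis was possible because the genotypes share only 1 replicate number (2). Snhg1 and H19 kept their direction and call under every alternative run, and Neat1, Meg3, Rian and Gas5 kept their direction. Upper-quartile factors, total counts and no filter moved the median of all genes from 0.10 to 0.32, 0.21 and 1.30. The log2 fold changes below are Mmp13-/- over WT.

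With GC correction, and with background subtraction and GC correction together, Malat1 was at −0.73 and −0.68, Meg3 at −0.50 and −0.52, Rian at 0.32 and 0.30, Kcnq1ot1 at −0.65 and −0.67, and Gas5 at 0.23 and 0.26. The log2 difference in the ratio of Kcnq1ot1 to Cdkn1c, an alternative chosen after seeing the data, turned to −0.81 and −0.84. The number of the 9 RNAs called over 2-fold was then 0 under both, the number of all genes called over 2-fold 4616 and 3445, and the number of all genes called at any fold 7606 with both corrections. Without a filter 19292 genes were called and 14325 over 2-fold, and with at least 10 counts in every sample 4666 over 2-fold. Total counts gave −0.69 for Neat1 and −0.79 for Meg3, neither called, and upper-quartile factors gave 0.43 for Kcnq1ot1, called. Meg3 also passed 2-fold without a filter (−1.01), and Gas5 with upper-quartile factors (1.03). Malat1 was never called outside the GC settings and turned to 0.10 with upper-quartile factors, 0.056 with total counts, 0.028 with at least 10 counts in every sample and 0.063 with background subtraction.

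With 1 sample left out in turn, Malat1 ranged from −0.26 to 0.088, Neat1 from −1.02 to −0.72, Mirg from 0.19 to 0.74, and the log2 difference in the ratio of H19 to Igf2 from −0.78 to 0.12. Dio3 ranged from −0.65 to 0.025, Kcnq1 from −0.57 to 0.29, Slc22a18 from −0.46 to 0.023, Igf2os from −0.98 to 0.017 and Gm22357 from −0.57 to 0.57.

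Other named genes that changed direction did so mainly under GC correction, with 0.42 for Rtl1, 0.56 for Dio3, 0.52 for Begain, 0.48 for Wdr25, 0.16 for Cdkn1c, 0.71 for Slc22a18, 0.30 for Tssc4, 0.31 for Cd81, 0.060 for Cars, 0.58 for Igf2os, 0.33 for Mrpl23, 0.17 for Lsp1, 0.18 for Smarca4 and 0.25 for Fbl. With both corrections Rtl1 was at 0.32, Dio3 0.56, Begain 0.25, Wdr25 0.37, Cdkn1c 0.18, Slc22a18 0.61, Tssc4 0.31, Cd81 0.35, Cars 0.068, Mrpl23 0.32, Lsp1 0.20, Smarca4 0.22 and Fbl 0.24. Upper-quartile factors gave 0.082 for Wdr25, 0.023 for Slc22a18, 0.071 for Cd81, 0.048 for Tnfrsf23 and 0.23 for Gm22357. Kcnq1 was at −0.080 without a filter, −0.15 in limma and −0.051 with background subtraction, which gave Cd81 0.026 and Gm22357 0.084. Gm22357 was at 0.0079 with RLE factors, 0.032 with total counts, 0.039 with factors without the satellite, receptor and most abundant genes, and 0.040 in DESeq2. Of 1061 comparisons over 63 other named genes, 916 kept direction and call. The causes of these changes were not tested.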
